A study of Mus musculus with 11 samples.

Results

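Genes of the TGF-beta, activin, and BMP pathways were followed across 11 OvTrpMyc cell lines. The 41 members are a list of ligands, receptors, coreceptors, Smads, secreted antagonists, latent TGF-beta binding proteins, and target genes, and all 41 were found by symbol among the 28284 genes of the count table. The lines came from 7 mice, with 7 from an ovary, 2 from a uterus, and 2 from tumors. The ovary lines carry the names ROV and LOV of mice F318 and F364 and ROV of mice F319, F326, and F339, the uterus lines came from mice F319 and F333, and the tumor lines are F326 splenic tumor and F361 peritoneal tumor. Each line gave 1 library of polyadenylated RNA. All lines shared the genotype Ovgp1-Trp53-R270H-Myc, in which the promoter of the oviduct glycoprotein gene Ovgp1 drives mutant p53 and Myc from the Trp53 locus, on a C57BL/6J background. None was treated, and no line without the transgene was sequenced, so every comparison below is between transgenic lines. The lines were minced tissue grown out in RPMI 1640 with serum and used at low passage. The ages of the donor mice are not given in the labels, and the study's methods state that F361 did not retain expression of the mutant p53 copy.

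TGF-beta, activin, and BMP ligands are secreted dimers that assemble type II and type I serine/threonine kinase receptors. The type II receptor phosphorylates the type I receptor, which then phosphorylates receptor-activated Smads. Smad2 and Smad3 act for TGF-beta and activin, Smad1, Smad5, and Smad9 act for BMPs, and both sets enter the nucleus with Smad4. Smad6 and Smad7 inhibit the cascade, secreted proteins such as noggin, chordin, gremlin, and follistatin trap ligands outside the cell, and latent TGF-beta is held in the matrix by its binding proteins. In the female reproductive tract these ligands are known for follicle growth, Mullerian duct development, and endometrial remodeling, and in carcinomas TGF-beta is known for growth arrest and for epithelial-mesenchymal transition.

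Levels are given as CPM, the count of a gene per 1000000 counts of the library. Library totals ranged from 13580525 to 27044598, and the detection limit of 3 counts corresponded to 0.111 to 0.221 CPM. Libraries 1 to 7 stood apart from libraries 8 to 11. A list of muscle fiber genes took 7.96% to 14.6% of counts in libraries 1 to 7 and 0.163% to 1.27% in libraries 8 to 11 (both uterus lines together with F318 LOV and F339 ROV). The 4 Y-linked genes summed to 128 to 174 CPM in the former and 1.75 to 19.2 CPM in the latter, which goes against an ovary or uterus as the only source of RNA. The 10 mesenchymal markers summed to 1426 to 15850 CPM and 20220 to 35613 CPM, respectively. The sums of blood (48.6 to 563 CPM against 3.27 to 17.3 CPM) and adipocyte markers (151 to 321 CPM against 2.31 to 36.5 CPM) also separated the sets, and those of endothelial markers were 62.1 to 265 CPM and 2.18 to 72.2 CPM. The cells were labelled as ovarian cancer, yet 10 epithelial markers summed to only 3.42 to 159 CPM, with Epcam below 3 counts in 6 lines and the highest sum in F319 ROV. Ovgp1 itself did not exceed 6.52 CPM. Both uterus lines lie in libraries 8 to 11 and both tumor lines in libraries 1 to 7, so that organ and library set are in part the same split. In bulk RNA, fewer cells of a type cannot be told apart from less RNA per cell.

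Among the 41 members, 35 had at least 3 counts in all 11 lines, and 29 reached 1 CPM in every line. The 6 that were not detected in some line were the ligands Bmp2, Bmp5, Bmp7, Gdf6, and Gdf10 and the antagonist Nog. Of the members, 10 had their highest level in F339 ROV, 8 in F318 LOV, 5 in F319 ROV, 4 in F319 uterus, and no more than 3 in any other line. Setting aside Bmp7 and Gdf6, whose lowest value of 0 counts is shared by several lines, the lowest level lay in F361 peritoneal tumor for 8 members and in F326 splenic tumor for 7. It lay in F326 ROV and in F318 LOV for 6 members each, and in any other line for fewer. These counts per line were not set beside the same counts over all genes.

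**Figure D1:**
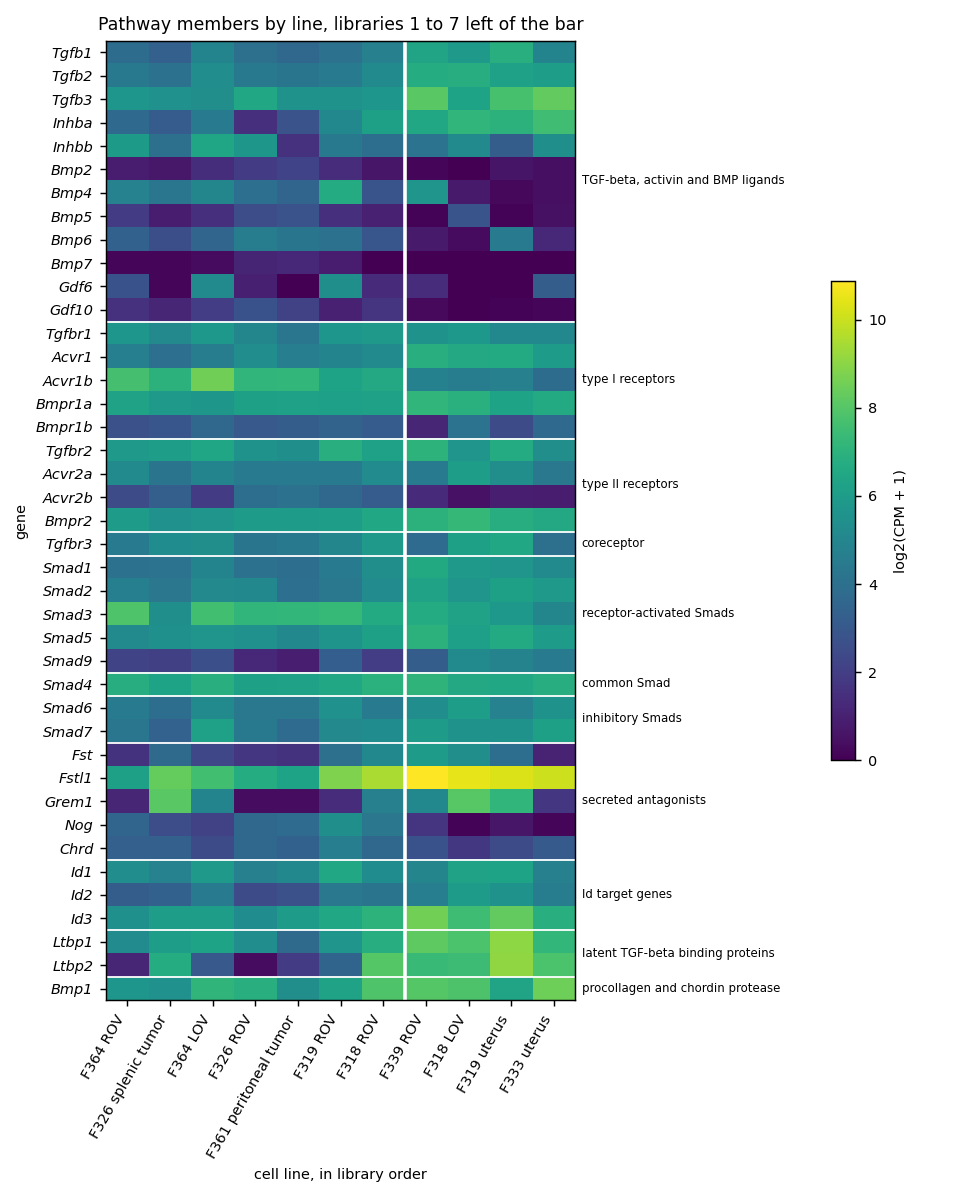
Levels of the 41 members as log2(CPM + 1), with genes in rows grouped by role and the 11 lines in columns by library number; the white bar parts libraries 1 to 7 from libraries 8 to 11. Fstl1 reached 1886 CPM in F339 ROV, Smad4 kept to 70.7 to 134 CPM, and Bmp7 did not exceed 1.33 CPM in any line.

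The BMP target genes Id1, Id2, and Id3 encode inhibitors of basic helix-loop-helix transcription factors, and Smad6 is an inhibitory Smad that BMP signaling itself induces. The promoter windows of Id2, Id3, and Smad6 are shown because these genes stand at the transcriptional end of the pathway, where Smads are known to bind short motifs. Each window runs from 250 bases before to 50 bases after the RefSeq start on GRCm38.p6, reads 5′ to 3′ on the gene's strand, and has in capitals every match on either strand to CAGAC (the Smad box), GTCTAGAC (the Smad palindrome), or GGCGCC (a GC-rich site bound by Smad1 and Smad5). The windows are chr12:25096043-25096342 on the minus strand for Id2, chr4:136143572-136143871 on the plus strand for Id3, and chr9:64022010-64022309 on the minus strand for Smad6.
Id2: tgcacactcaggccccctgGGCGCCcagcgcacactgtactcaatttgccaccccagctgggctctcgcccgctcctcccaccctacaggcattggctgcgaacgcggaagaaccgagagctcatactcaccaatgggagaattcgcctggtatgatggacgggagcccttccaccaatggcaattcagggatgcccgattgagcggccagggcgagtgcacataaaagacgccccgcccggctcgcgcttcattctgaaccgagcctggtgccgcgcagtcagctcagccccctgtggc
Id3: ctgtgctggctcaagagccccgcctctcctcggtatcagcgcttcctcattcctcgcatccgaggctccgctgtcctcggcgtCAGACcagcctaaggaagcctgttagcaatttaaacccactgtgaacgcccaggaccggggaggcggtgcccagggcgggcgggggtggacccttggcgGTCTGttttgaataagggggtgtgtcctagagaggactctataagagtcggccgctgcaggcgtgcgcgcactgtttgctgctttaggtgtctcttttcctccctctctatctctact
Smad6: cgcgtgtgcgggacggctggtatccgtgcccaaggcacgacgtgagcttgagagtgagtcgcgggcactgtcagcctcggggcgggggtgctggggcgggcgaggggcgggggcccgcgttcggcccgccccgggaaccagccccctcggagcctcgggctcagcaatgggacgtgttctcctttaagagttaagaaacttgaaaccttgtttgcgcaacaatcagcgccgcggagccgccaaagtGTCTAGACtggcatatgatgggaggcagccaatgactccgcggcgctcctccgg

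The window of Id3 held 2 matches to CAGAC, that of Id2 held 1 match to GGCGCC, and that of Smad6 held 1 match to GTCTAGAC. Windows were found for 29 of the 41 members, 35 in all. CAGAC was present for 15 of the 29 members, against 49.5% of 32544 mouse promoter windows of the same length. GGCGCC was present for 10 of 29, against 11.9% of windows, and GTCTAGAC was present for Smad6 alone, against 0.215% of windows. The E-box CANNTG, the site of the factors that Id proteins hold back, was present for 14 of 29, against 72.3% of windows. No match to CAGAC can lie within GTCTAGAC, several members have more than 1 start, and a match describes letters only.

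Among the TGF-beta ligands, Tgfb3 was the highest per length of exon in most lines. Per kb of exon, it led the 12 ligands in 9 of 11 lines, at 13.2 to 91.7 CPM per kb, while Inhbb led in F364 LOV (19.5 CPM per kb) and Bmp4 in F319 ROV (45.6 CPM per kb). On the CPM scale, Tgfb3 ranged from 40.4 to 91.3 CPM over libraries 1 to 7 (median 47.1) and stood at 272 CPM in F339 ROV, 79.0 CPM in F318 LOV, 209 CPM in F319 uterus, and 310.1 CPM in F333 uterus. Only F318 LOV lay within the range of the first set. Tgfb3 (chr12:86056745-86079041 on GRCm38, minus strand) overlaps Ttll5 and 2 predicted genes on the opposite strand, and reads of the strands cannot be told apart where the counting did not use strand.

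Tgfb1, the isoform most widespread in tissues, ranged from 9.05 to 28.9 CPM over libraries 1 to 7 (median 15.3) and was 79.7, 56.0, 116, and 29.2 CPM in libraries 8 to 11. This and every such series of 4 values starts with F339 ROV and F318 LOV and ends with the uterus lines of F319 and F333. The sets did not overlap, but F364 LOV (28.9 CPM, 95% Wilson interval 26.4 to 31.7) and F333 uterus (29.2 CPM, 27.0 to 31.6) met at the border. Tgfb2 ranged from 15.8 to 38.9 CPM (median 20.4) and was 106, 110, 74.5, and 64.9 CPM. All 4 of the latter values lay clear of the former. Per kb of exon, the Tgfb2 level was above that of Tgfb1 in every line of libraries 1 to 7 and below it in F319 uterus.

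Activin is a dimer of inhibin beta subunits. Inhba, the beta A subunit, ranged over libraries 1 to 7 between 1.74 CPM (F326 ROV) and 71.3 CPM (F318 ROV), with a median of 12.2 CPM, and was 87.6, 142, 125, and 187 CPM in libraries 8 to 11. Inhbb, the beta B subunit, had another order, with 83.1, 60.1, and 52.5 CPM in F364 LOV, F364 ROV, and F326 ROV, 1.91 CPM in F361 peritoneal tumor, and 8.13 to 41.5 CPM in libraries 8 to 11. The lines highest in one subunit were thus not those highest in the other. Per kb of exon, Inhbb exceeded Inhba in F364 ROV, F364 LOV, F326 ROV, and F326 splenic tumor, and Inhba exceeded Inhbb in all 4 lines of libraries 8 to 11.

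BMP ligands were mostly low or restricted to a few lines. Bmp4 (chr14:46383520-46390669, minus strand), a ligand of the BMP2/4 class, was 103 CPM in F319 ROV (95% Wilson interval 98.4 to 107), 50.5 CPM in F339 ROV, and 6.05 to 30.8 CPM in the other 6 lines of libraries 1 to 7. It was 0.742 CPM in F318 LOV, 0.185 CPM in F319 uterus (5 counts, 0.0790 to 0.433), and 0.371 CPM in F333 uterus (8 counts, 0.188 to 0.733). F339 ROV was thus the only line of libraries 8 to 11 above 1 CPM of Bmp4. Bmp6, a ligand also known for iron sensing in the liver, was 5.19 to 23.7 CPM in libraries 1 to 7 and 0.745, 0.262, 21.3, and 1.35 CPM in libraries 8 to 11, so F319 uterus kept with the first set. Gdf6, a joint-forming growth factor, was 42.4 CPM in F319 ROV, 34.5 CPM in F364 LOV, 8.31 CPM in F333 uterus, 5.64 CPM in F364 ROV, and at most 1.57 CPM elsewhere. Bmp2, Bmp5, Bmp7, and Gdf10 never exceeded 6.02 CPM. Bmp7 reached 3 counts in only 4 lines, and 0 counts in the 4 libraries 8 to 11 allow levels up to 0.111 to 0.139 CPM.

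Of the proteins that hold latent ligand, Ltbp1, which binds the TGF-beta propeptide in the matrix, ranged from 12.4 to 110.1 CPM over libraries 1 to 7 (median 49.9) and was 292, 221, 516, and 149 CPM in libraries 8 to 11. Ltbp2, a fibrillin-associated relative, spread over a wider range than any other member detected in all lines, being lowest in F326 ROV (0.267 CPM) and highest in F319 uterus (539 CPM). It was 259 CPM in F318 ROV, 105 CPM in F326 splenic tumor, 162, 178, and 222 CPM in F339 ROV, F318 LOV, and F333 uterus, with 10.3 CPM as the highest of the remaining 5 lines. Bmp1, the protease that trims procollagen and cleaves chordin and is no ligand, was 40.6 to 238 CPM in libraries 1 to 7 and 254, 229, 80.7, and 359 CPM in libraries 8 to 11.

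Among type I receptors, the leading gene differed between the library sets. Per kb of exon, Acvr1b (chr15:101174067-101213684, plus strand), the activin receptor ALK4, was the highest of the 5 in all 7 lines of libraries 1 to 7 (17.7 to 83.1 CPM per kb), and in no line of libraries 8 to 11. There Acvr1, the BMP and activin receptor ALK2, led in F339 ROV, F318 LOV, and F319 uterus (19.3 to 24.1 CPM per kb), and Bmpr1a, the BMP receptor ALK3, led in F333 uterus (15.5 CPM per kb). On the CPM scale, Acvr1b ranged from 78.3 to 367 CPM (median 143) in libraries 1 to 7 and was 26.6, 23.2, 25.9, and 13.6 CPM in libraries 8 to 11. Lines of similar muscle fiber share differed in it, since F319 ROV (12.9% of counts on muscle fiber genes) had 78.3 CPM and F364 LOV (13.5%) had 367 CPM. The part of muscle RNA in the Acvr1b level was not tested.

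Acvr1 ranged from 14.8 to 38.9 CPM (median 25.3) over libraries 1 to 7 and was 116, 93.3, 100.2, and 61.0 CPM in libraries 8 to 11, the reverse of Acvr1b. Bmpr1a ranged from 53.7 to 77.0 CPM and was 143, 121, 77.8, and 98.5 CPM, with overlapping 95% Wilson intervals of F364 ROV (72.8 to 81.5 CPM) and F319 uterus (74.5 to 81.2 CPM). Tgfbr1, the TGF-beta receptor ALK5, was 18.3 to 58.4 CPM in all lines, lowest in F361 peritoneal tumor and with no split between the sets. Bmpr1b, ALK6, did not exceed 16.8 CPM.

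The ligand-binding type II receptors were led per kb of exon by Tgfbr2 in 9 of 11 lines (5.18 to 15.8 CPM per kb). Tgfbr2 stayed within 40.9 to 129 CPM and Acvr2a within 17.0 to 65.0 CPM, and the values of both genes overlapped between the library sets, although Acvr2a in F318 LOV (65.0 CPM) and F319 uterus (41.01 CPM) lay above all of libraries 1 to 7. Bmpr2 ranged from 44.0 to 89.1 CPM over libraries 1 to 7 and was 128, 149, 109, and 92.5 CPM in libraries 8 to 11. Acvr2b, the other activin and myostatin receptor, was 2.85 to 16.1 CPM in libraries 1 to 7 (median 8.73) and 1.53, 0.436, 0.887, and 0.836 CPM in libraries 8 to 11. Tgfbr3, betaglycan, which presents TGF-beta2 and inhibin, was 88.0 CPM in F319 uterus and 70.8 CPM in F318 LOV but 13.2 CPM in F339 ROV and 14.99 CPM in F333 uterus.

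**Figure D2:**
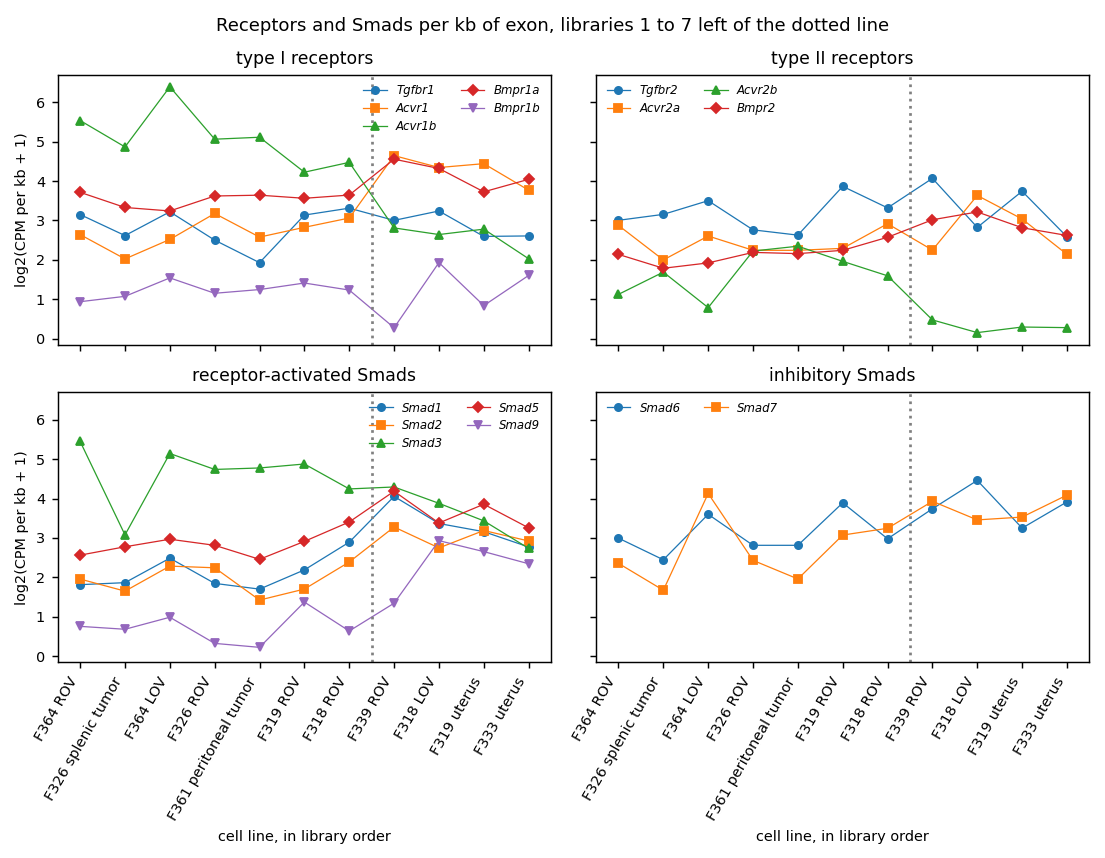
Levels per kb of exon, as log2(CPM per kb + 1), of type I receptors, type II receptors, receptor-activated Smads, and inhibitory Smads in the 11 lines by library number, with a dotted line between libraries 7 and 8; the lines joining points only help the eye. Acvr1b lies above the other type I receptors left of the dotted line (17.7 to 83.1 CPM per kb), and Smad3 leads the receptor-activated Smads in 9 of 11 lines.

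Smad4, the partner of both Smad branches, had the narrowest range of all members, between 70.7 CPM (F326 ROV) and 134 CPM (F339 ROV), a 1.89-fold difference. Of the receptor-activated Smads, Smad3 was the highest per kb of exon in 9 lines (7.43 to 42.7 CPM per kb), and Smad5 was the highest in both uterus lines (13.5 and 8.55 CPM per kb). In CPM, Smad3 was 237 and 190.3 CPM in F364 ROV and F364 LOV, 99.4 to 157 CPM in the other 4 lines of libraries 1 to 7 besides F326 splenic tumor (41.2 CPM), and 103, 75.9, 54.3, and 31.3 CPM in libraries 8 to 11. Smad2, the other TGF-beta and activin Smad, was higher in the second set, with 14.7 to 37.2 CPM in libraries 1 to 7 and 76.3, 50.1, 71.2, and 57.7 CPM in libraries 8 to 11.

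Per kb of exon, the BMP Smads were lower than Smad3 in every line of libraries 1 to 7. Smad1 ranged from 14.1 to 40.2 CPM over libraries 1 to 7 and was 97.7, 58.3, 49.6, and 36.4 CPM in libraries 8 to 11, and Smad5 ranged from 33.3 to 71.1 CPM and was 128, 69.7, 99.9, and 63.4 CPM. The least abundant, Smad9, was 0.884 to 8.51 CPM and 8.23, 35.5, 28.4, and 21.9 CPM, so that only F339 ROV lay within the first range. The inhibitory Smads did not separate the sets. Smad6 was highest in F318 LOV (67.3 CPM) and lowest in F326 splenic tumor (14.2 CPM). Smad7 was highest in F364 LOV (74.5 CPM), which had 18.6 CPM in F364 ROV from the same mouse, and was lowest in F326 splenic tumor (9.87 CPM).

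Fstl1, which encodes a follistatin-like glycoprotein, ranged from 71.97 to 722 CPM over libraries 1 to 7 (median 189) and was 1886, 1435, 1283, and 1054 CPM in libraries 8 to 11. Grem1 (chr2:113746164-113758646, minus strand), which encodes the BMP antagonist gremlin, was 272 CPM in F326 splenic tumor, 262 CPM in F318 LOV, and 141 CPM in F319 uterus, 25.9 to 32.6 CPM in F318 ROV, F364 LOV, and F339 ROV, and no more than 2.32 CPM in the other 5 lines. The levels of 0.267 CPM in F326 ROV and 0.295 CPM in F361 peritoneal tumor each rested on 4 counts. Grem1 therefore followed neither the organ nor the library set.

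Nog and Chrd encode noggin and chordin, which also trap BMPs. Nog was 41.2 CPM in F319 ROV, 3.48 to 19.0 CPM in the other 6 lines of libraries 1 to 7, and 2.20, 0.0873, 0.592, and 0.139 CPM in libraries 8 to 11, the second of which rested on 2 counts. Chrd was 2.40 to 23.9 CPM and was also highest in F319 ROV. F319 ROV, the line with the highest epithelial sum (159 CPM), was the highest of all lines for Bmp4, Gdf6, Nog, Chrd, and Id1. Fst, which encodes the activin antagonist follistatin, ranged from 1.07 CPM in F333 uterus to 62.9 CPM in F339 ROV, although Inhba was highest in F333 uterus.

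Of the target genes, Id1 varied little, from 25.5 CPM in F333 uterus to 87.9 CPM in F319 ROV, a 3.44-fold range. Id3, whose window holds the 2 CAGAC matches shown above, was 37.7 to 131 CPM in libraries 1 to 7 and 383, 180.3, 306, and 111 CPM in libraries 8 to 11. Id2 was 4.67 to 20.5 CPM and 24.2, 64.4, 46.4, and 23.0 CPM, with no overlap. F339 ROV had the highest Id3 but only 30.2 CPM of Id1, so the members of the family did not share an order over the lines.

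Comparing libraries 8 to 11 with libraries 1 to 7, 10 members had every value in the former above every value in the latter (Tgfb1, Tgfb2, Inhba, Acvr1, Bmpr1a, Bmpr2, Smad2, Fstl1, Id2, and Ltbp1), and 5 had every value below (Bmp2, Gdf10, Acvr1b, Acvr2b, and Nog). The other 26 overlapped. Over the 21616 genes that averaged 1 count or more, 20.0% were higher and 13.4% lower without overlap, close to the 24.4% and 12.2% of members. This split was known from earlier results and received no test. The medians of the members differed by 0.59 on the log2(CPM + 1) scale, against 0.10 over all genes. All genes include many near 0 CPM, which differ little on this scale whatever their ratio, so these values are not like for like.

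The count of higher members depended on scaling. With TMM effective library sizes or DESeq2 size factors, 7 members were higher and the same 5 lower, with Tgfb1, Bmpr1a, and Id2 now overlapping. With muscle fiber genes left out of the totals, 6 were higher and 5 lower, and Bmpr2 overlapped as well. Over all genes, the counts of higher and lower genes were 4318 and 2895 on library totals, 3357 and 3582 with TMM, 3108 and 3775 with DESeq2 size factors, and 3644 and 3279 without muscle fiber genes. The median difference of the members was 0.52 with TMM, 0.41 with DESeq2 size factors, and 0.46 without muscle fiber genes. Over all genes it was 0.003, 0, and 0.05 in the same order. Tgfb2, Inhba, Acvr1, Smad2, Fstl1, and Ltbp1 were higher, and Bmp2, Gdf10, Acvr1b, Acvr2b, and Nog lower, under all 4 scalings. The muscle fiber share and the mesenchymal, blood, adipocyte, and endothelial sums, given above, moved with this split, and their part in it was not tested.

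**Figure D3:**
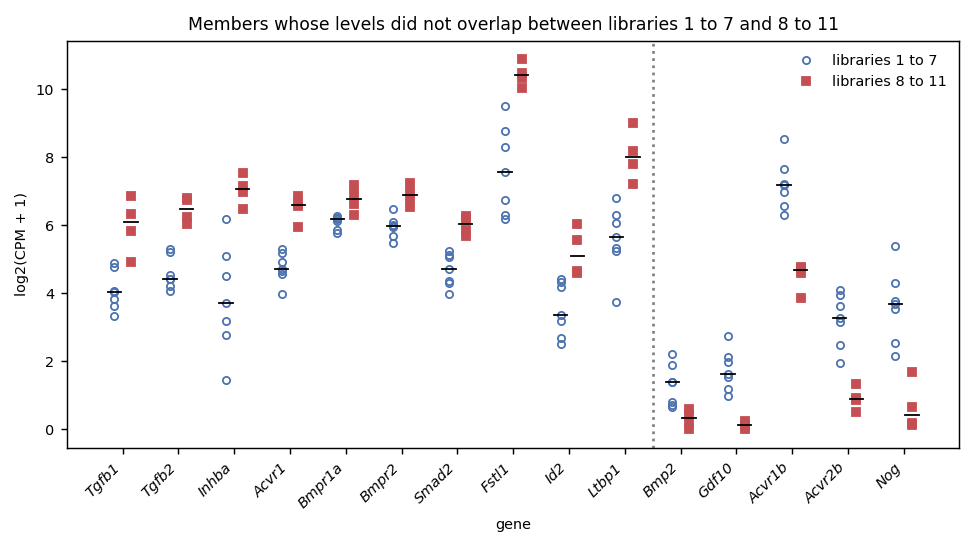
Levels as log2(CPM + 1) of the 15 members whose values did not overlap between the 7 lines of libraries 1 to 7 (open circles) and the 4 lines of libraries 8 to 11 (filled squares), with medians as bars; genes left of the dotted line were higher in libraries 8 to 11. The medians of Inhba were 12.2 and 134 CPM and those of Fstl1 189 and 1359 CPM, and Tgfb1, Bmpr1a, and Id2 overlap when TMM sizes replace library totals.

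To relate these genes to the organ of origin, the 2 uterus lines were compared with the 7 ovary lines by edgeR's quasi-likelihood test over 17446 genes. No gene passed an adjusted p of 0.05 (0%), while 2308 genes (13.2%) had an unadjusted p under 0.05 and DESeq2 called 1293. Of the members, 0 of 41 passed and 9 had an unadjusted p under 0.05, which were Tgfb3 on the higher side and Bmp4, Bmp5, Gdf10, Tgfbr1, Acvr1b, Acvr2b, Smad3, and Nog on the lower. The lowest adjusted p of a member was 0.359. The 2308 genes became 972 without F319 uterus, 1306 without F333 uterus, 1452 without F319 ROV, 1514 without F364 ROV, 3989 without F339 ROV, and 4828 without F318 LOV. The 9 members became 4 without F364 ROV, 5 without F318 ROV, 9 again without F318 LOV, and 12 without F339 ROV (4 higher and 8 lower). With the mouse as a block 10 members had an unadjusted p under 0.05, of which 5 were higher and 5 lower. The median log2 fold change was -0.11 over the members and -0.05 over all genes. DESeq2 called 7 members, all lower (Bmp4, Bmp5, Gdf10, Acvr1b, Acvr2b, Smad3, and Nog), and of the genes to which it gave an adjusted p 6.04% were called lower.

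The member with the most negative fitted value was Bmp4, at 0.278 ± 0.132 CPM (SD, n = 2) in uterus lines and 33.2 ± 34.8 CPM (SD, n = 7) in ovary lines. Its log2 fold change was -7.06 ± 1.94 (SE), with an adjusted p of 0.359 in edgeR's quasi-likelihood test and 1.4e-05 in DESeq2, and over all alternatives the adjusted p ranged from 1.4e-05 to 0.9998. The ovary line F318 LOV, at 0.742 CPM, lay near the uterus lines. Nog followed with -5.33 ± 2.01 and Gdf10 with -4.78 ± 2.04, the latter resting on 2 counts in each uterus line, so that its fitted size depends on the prior count. On the other side were Ltbp2 at 2.06 ± 1.60 (adjusted p 0.464 in edgeR), Inhba at 1.54 ± 0.95 (adjusted p 0.395 in edgeR), and Tgfb3 at 1.43 ± 0.58 (adjusted p 0.359 in edgeR). Uterus lines had 259 ± 71.7 CPM (SD, n = 2) of Tgfb3 and ovary lines 90.6 ± 82.2 CPM (SD, n = 7), of which F339 ROV with 272 CPM exceeded 1 uterus line.

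Within libraries 8 to 11, where 2 uterus lines meet 2 ovary lines, edgeR again called 0 of 15566 genes, and 522 (3.35%) had an unadjusted p under 0.05. Of 38 members tested, 3 had such a p. Bmp4 was lower at -6.46 ± 2.06, Smad3 was lower at -1.07 ± 0.37, and Bmp6 was higher at 4.41 ± 1.44 on the log2 scale. Of the ovary lines there, only F339 ROV was above 1 CPM of Bmp4. The fitted values within these lines were -0.34 for Acvr1b, -0.17 for Acvr2b, and -1.63 for Nog, where those over all libraries were -3.11, -3.09, and -5.33. Those of the members named as higher were 0.61 for Tgfb3, 0.47 for Inhba, and 1.14 for Ltbp2, where those over all libraries were 1.43, 1.54, and 2.06. The value of Bmp6 over all libraries was -0.15, opposite in sign to that within these lines.

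Tumor lines were compared with ovary lines within libraries 1 to 7, which holds the library set constant and leaves 2 against 5 lines. The edgeR test called 0 of 16299 genes (0%) at an adjusted p of 0.05, 1636 had an unadjusted p under 0.05, of which 1120 were lower (6.87% of genes tested), and DESeq2 called 337. Of the members, 0 of 41 passed and 3 had an unadjusted p under 0.05, all lower in the tumor lines, which were Gdf6, Bmp1, and Smad7. These 3 members became 5 without F326 ROV, F319 ROV, or F318 ROV, 2 without F364 LOV, and 10 (4 higher and 6 lower) with the mouse as a block. Fitted values were below 0 for 34 of 41 members, or 82.9%, against 48.7% of all genes, and the member median was -0.40 against 0.02 over all genes. The counts of members below 0 ranged from 30 to 35 when single lines were left out. With the mouse as a block, where the organ difference comes from the F326 pair alone, 24 of 41 members (58.5%) were below 0, against 50.6% of all genes, and edgeR again called 0 genes. DESeq2 called Gdf6 alone among the members, and 1.98% of its genes with an adjusted p were called lower.

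Gdf6 was 0.127 CPM (2 counts) in F326 splenic tumor and 0 in F361 peritoneal tumor, against 42.4, 34.5, 5.64, 1.48, and 0.935 CPM in F319 ROV, F364 LOV, F364 ROV, F318 ROV, and F326 ROV. Its fitted log2 fold change of -7.72 ± 2.40 (adjusted p 0.424 in edgeR) depends on the prior count, given the 2 counts in the tumor lines. Inhbb was at -2.36 ± 1.04 (adjusted p 0.494 in edgeR) and Inhba at -1.77 ± 1.06 (adjusted p 0.581 in edgeR). Inhbb was 15.2 CPM in F326 splenic tumor and 1.91 CPM in F361 peritoneal tumor, and its value became -1.54 without F361 and -4.53 without F326 splenic tumor. Inhba was 8.04 and 5.89 CPM in the tumor lines and 1.74 CPM in F326 ROV, so the groups overlapped, and with the mouse as a block its value turned to 2.29. The most positive were Grem1 at 3.71 ± 1.83, Acvr2b at 0.75 ± 0.57, and Bmp2 at 0.64 ± 0.81, with adjusted p of 0.528, 0.653, and 0.786 in edgeR. The direction of Grem1 came from F326 splenic tumor and became -5.12 without it, and that of Bmp2 came from F361 peritoneal tumor and became -1.09 without it. With the mouse as a block, Bmp2 was at -2.01, Acvr2b at -0.64, Gdf6 at -2.73, and Grem1 at 10.04.

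**Figure D4:**
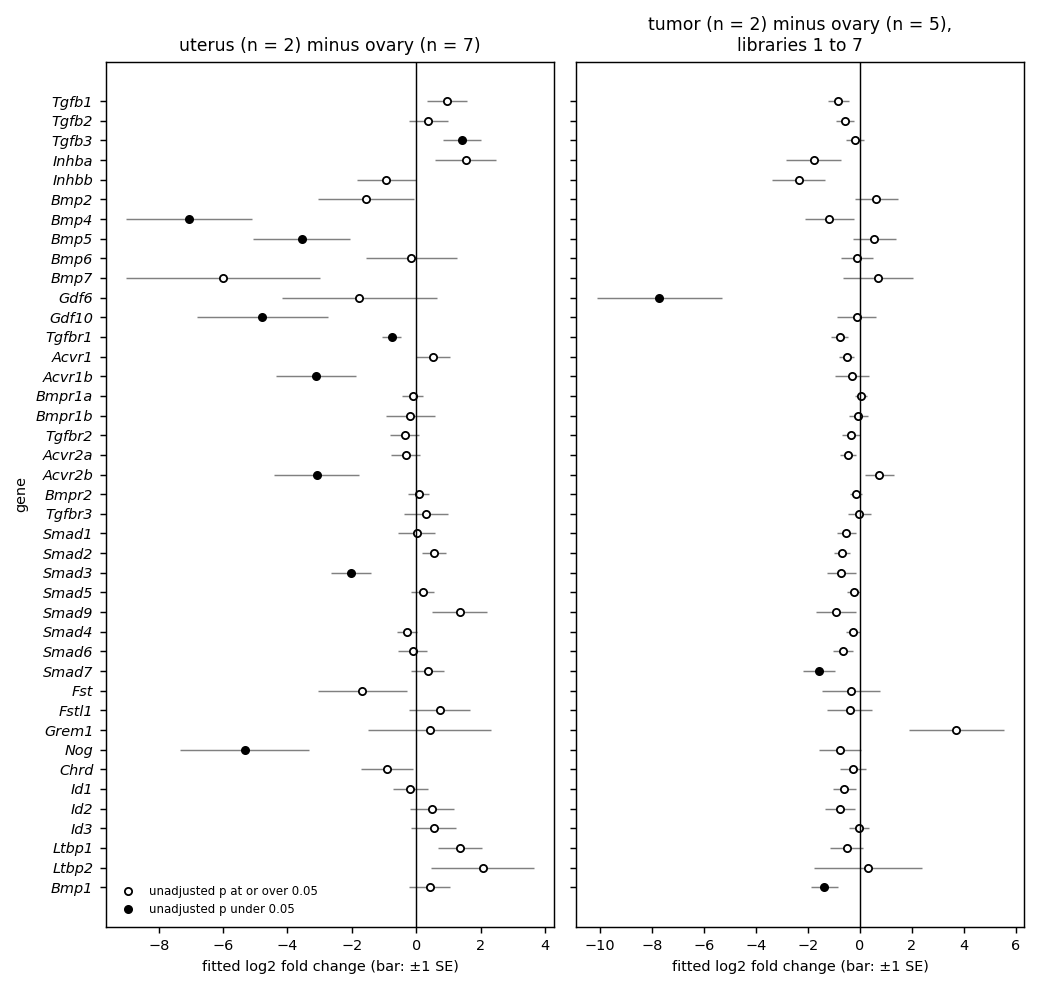
Fitted log2 fold changes (points) with 1 SE (bars) of the 41 members in edgeR for 2 uterus against 7 ovary lines (left) and 2 tumor against 5 ovary lines of libraries 1 to 7 (right), with filled points for an unadjusted p under 0.05 and an x axis of its own for each panel. The 9 filled points on the left and 3 on the right have adjusted p of 0.359 or more, and 34 points on the right lie below 0.

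Lines from the same mouse share a host, and 4 mice gave 2 lines each. Differences of 2-fold or more on CPM + 1 are given beside the share over the 21616 genes averaging 1 count or more. A gene under 1 CPM in both lines of a pair cannot reach this, and 29 of 41 members reached 1 CPM in every line. The all-gene shares of the 4 pairs are therefore not like for like with the members. Of the 41 members, 10 differed 2-fold or more on CPM + 1 between F364 LOV and F364 ROV, against 5.18% of all genes. Both lines lie in libraries 1 to 7, with muscle fiber shares of 13.5% and 14.0%. F364 LOV had the higher level of 9 of them. Grem1 was 29.0 CPM in LOV and 1.27 CPM in ROV, a 22.9-fold difference, Gdf6 was 34.5 and 5.64 CPM, Ltbp2 was 7.34 and 1.27 CPM, and Smad7 was 74.5 and 18.6 CPM. Bmp1, Fstl1, Id2, Tgfb1, and Ltbp1 differed by 2.11-fold to 2.65-fold in the same direction, and Nog was lower in LOV, at 3.48 and 10.7 CPM. The mesenchymal sum was 2580 CPM in LOV and 1426 CPM in ROV. In the same order, the endothelial sum was 265 and 134 CPM and the epithelial sum 6.20 and 47.4 CPM. The part of these sums in the differences was not tested.

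In mouse F326, the splenic tumor line and the ROV line differed 2-fold or more in 16 members, against 17.4% of all genes. Grem1 (272 and 0.267 CPM) and Ltbp2 (105 and 0.267 CPM) were higher in the tumor line by more than 2 orders of magnitude, and Fst, Inhba, Fstl1, and Tgfbr3 were also higher there. The 10 lower members included the ligands Tgfb3, Inhbb, Bmp2, Bmp5, Bmp6, and Gdf10, of which Bmp6 was 5.19 and 23.7 CPM, along with Acvr1, Smad3, Bmp1, and Nog. The mesenchymal sum was 6500 CPM in the tumor line and 2036 CPM in the ROV line. In the same order, the blood sum was 563 and 88.1 CPM and the endothelial sum 62.1 and 222 CPM. The part of these sums in the differences was not tested.

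The other pairs cross the library sets, so that mouse-matched differences cannot be told apart from the set. F318 LOV and F318 ROV differed in 18 members, against 26.8% of all genes, and F319 uterus and F319 ROV in 25, against 35.5%. On CPM + 1, Id2 was higher by at least 2-fold in F364 LOV, F318 LOV, and F319 uterus than in the ROV line of the same mouse, and in F326 splenic tumor the ratio of its CPM to that of F326 ROV was 2.004. Grem1 was higher in all 4 pairs (by 22.9-fold, 1018-fold, 10.1-fold, and 87.7-fold, in the order of the mice F364, F326, F318, and F319), and Nog was lower in all 4 by at least 2-fold on CPM + 1. With 1 library per line, these ratios have no replicate.

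**Figure D5:**
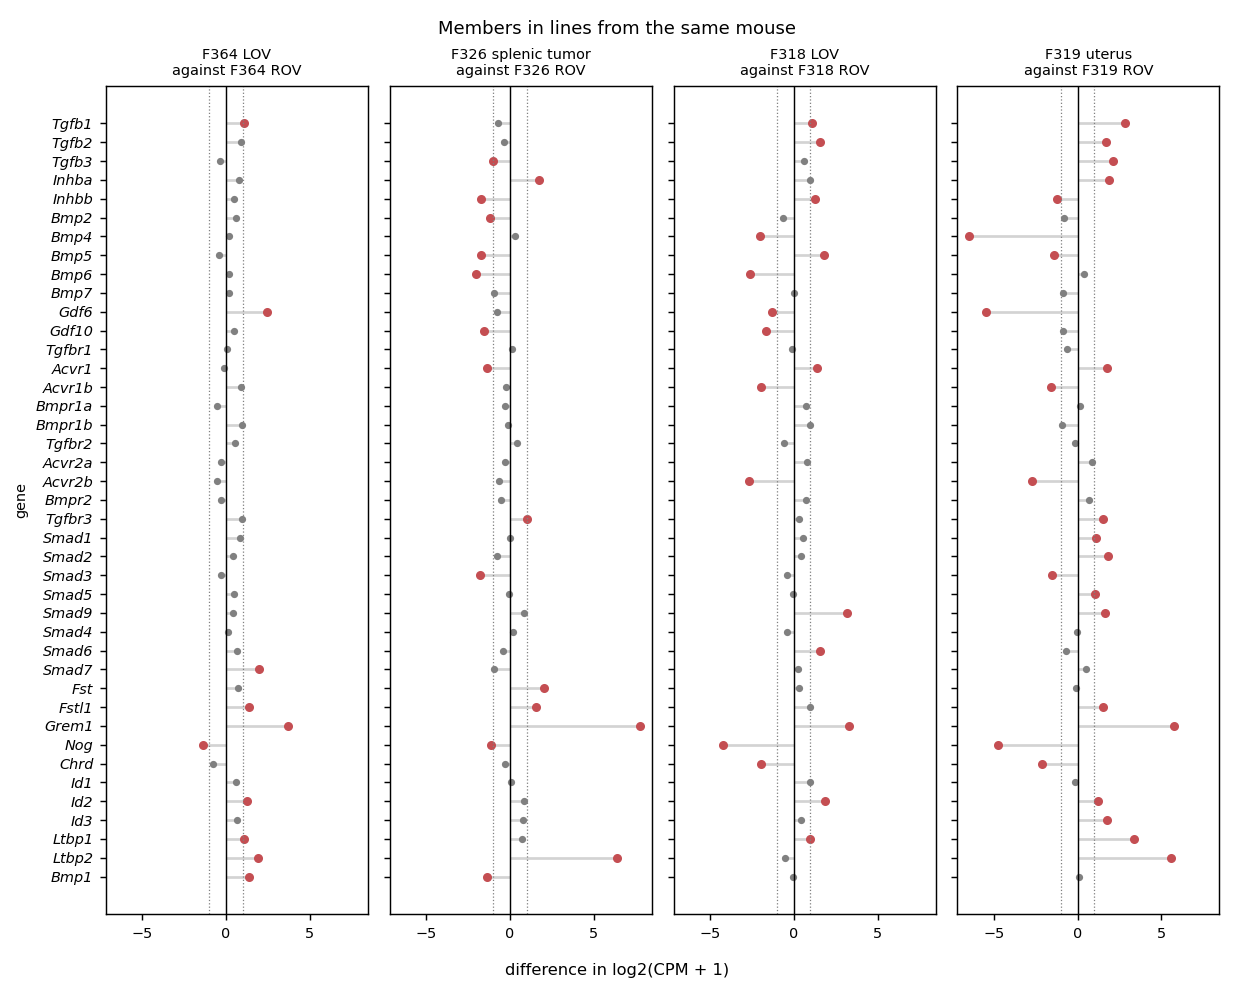
Difference in log2(CPM + 1) of each of the 41 members between lines of the same mouse, 1 panel per pair, with members that differ 2-fold or more in red and dotted lines at 2-fold. The counts of red points are 10, 16, 18, and 25 from left to right, Grem1 lies to the right in all 4 panels, and Nog lies to the left.

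A wider list of pathway genes, chosen for their known roles, comprised 75 genes, of which 71 were in the table and 65 averaged 1 count or more. Of these, 17 were higher and 9 lower in libraries 8 to 11 without overlap, beside 20.0% and 13.4% of all genes, and no test was made of any list. Unlike that of the members, this split was made on library totals only. The higher ones included 7 of 16 target genes, among them Ctgf, Acta2, Col1a1, Col3a1, and Fn1, several of which also count among mesenchymal markers, and 5 of 10 intracellular regulators (Smurf1, Smurf2, Skil, Pmepa1, and Tgif1). Ctgf, which encodes a matrix-associated growth factor, was 29.1 to 476 CPM in libraries 1 to 7 and 592, 1106, 850.3, and 2211 CPM in libraries 8 to 11. The lower ones included the muscle growth inhibitor myostatin, Mstn (33.4 to 188 CPM against 0.698 to 2.90 CPM), and the BMP coreceptor hemojuvelin, Hfe2 (185 to 927 CPM against 4.10 to 52.4 CPM), both of which skeletal muscle is known to express.

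In the edgeR tests, 0 of 63 of these genes passed an adjusted p of 0.05 between uterus and ovary lines, with 13 at an unadjusted p under 0.05 (4 higher and 9 lower), beside 13.2% of all genes. The extremes were Gdf15 at 2.28 ± 1.73, the activin antagonist Fstl3 at 2.23 ± 0.92, Chrdl2 at -5.20 ± 2.11, and Mstn at -5.08 ± 2.09 on the log2 scale. Gdf15 became -3.07 without F333 uterus, and Mstn became 0.45 within libraries 8 to 11. Over all alternatives, Fstl3 ranged from 0.74 to 3.45 and Chrdl2 from -8.76 to -4.14. DESeq2 gave Mstn an adjusted p of 0.0119 and Chrdl2 one of 0.0316. Between tumor and ovary lines, 0 of 61 passed, with 7 at an unadjusted p under 0.05 (1 higher and 6 lower), beside 6.87% of all genes on the lower side. The TGF-beta target Ctgf was at -3.12 ± 0.35 (adjusted p 0.155 in edgeR and 2.15e-15 in DESeq2), with 29.1 and 42.8 CPM in the tumor lines and 221 to 476 CPM in the 5 ovary lines. In the same comparison, Bmp3 was at 2.67 ± 0.88.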

How the data were processed

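mRNA of 11 lines was sequenced as paired-end reads from directional libraries. Per the study's methods, the authors aligned reads to GRCm38 (mm10, Ensembl annotation) with STAR in Galaxy, removed PCR duplicates with SAMtools, and deposited raw counts per gene from featureCounts without normalization. Tool versions and the strand setting are not given in the sources used here, and 15 members overlap a gene on the opposite strand. Each line was 1 library, lines were grouped by the organ in their titles, and p-values cover only the spread between lines, of which some share a mouse.

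CPM used library totals, and exon lengths came from GENCODE M21. Wilson intervals at 95% cover counting error only. Groups were compared with edgeR 4.0.16 (R 4.3.3) after TMM normalization and filterByExpr, with Benjamini-Hochberg adjustment over all genes tested and a threshold of 0.05. In counts simulated at a dispersion of 0.1, 200 of 200 genes changed 8-fold were found in each comparison, with 9 false calls for uterus and 6 for tumor, but the common dispersion of the deposited counts was 0.50 for uterus and 0.24 for tumor, so this recovery does not carry over to them. Alternatives were DESeq2 1.42.0, other size factors, no filter, all 11 lines, leaving out muscle fiber genes or single lines, 1 library set, and summing lines of the same mouse and organ. A fit with the mouse, taken from the line names, as a block was added after seeing the data. The block ties F319 uterus to F319 ROV and F326 splenic tumor to F326 ROV. Levels were computed with pandas 2.3.3, scipy 1.17.1, and numpy 2.4.6 in Python 3.11.15. Promoter windows came from RefSeq (GRCm38.p6).

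Members and lists were chosen with earlier results of these data known. Fitted values are named for the 3 most positive and 3 most negative members of each comparison with at least 1 CPM in the higher group, 2 each way for the wider list, and for members without overlap their levels are given. Values of Acvr1b, Acvr2b, Smad3, and Bmp6 in the fit within libraries 8 to 11, of Hfe2, and of members in same-mouse pairs were named after they were seen. Genes of the lists not found by symbol were not analysed here. Some results of the wider list are not reported here.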

Additional observations from a re-analysis of the deposited data

Results flagged for a closer look

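In each gene of the list, the highest and lowest of the 7 ovary lines were compared with the others by Dixon's gap test on log2(CPM + 1), which by chance picks about 1 in 20 groups. Of 41 members, 2 stood out. Tgfb3 was 272 CPM in F339 ROV, with the next ovary line at 91.3 CPM. Tgfbr1 was 30.4 CPM in F326 ROV, the lowest ovary line, with the next at 45.8 CPM. F339 ROV is library 8, and the tumor line F361 (18.3 CPM) was lower in Tgfbr1 than F326 ROV.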

How the results depend on the processing

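Under DESeq2, 1293 genes (165 higher and 1128 lower) and 7 members were called between uterus and ovary lines, and 337 genes and 1 member between tumor and ovary lines, where edgeR called 0. The cause was not tested. With no filter on low counts, edgeR called 2 genes for uterus. Leaving out single lines gave 0 to 1 genes for uterus (1 without F333 uterus) and 0 to 1 for tumor (1 without F318 ROV). Members higher in libraries 8 to 11 without overlap fell to 6 with muscle fiber genes left out of totals, and ranged from 10 to 14 when single lines were left out (14 without F318 ROV). Leaving out a line can only keep or raise this count, so that range is no check on it. In the tumor comparison without single lines, Grem1 ranged from -5.12 to 4.71 and Bmp2 from -1.09 to 1.40. Of 92 recomputed counts, 84 counted as unchanged. For genes and members called, where the main count was 0, this meant 0 again. For the library split it meant within 1.5 times. Counts at an unadjusted p under 0.05 were not among the 92. No named member passed the threshold in the main fits, and 182 of 191 fold changes kept their direction and side of it. All 82 median levels stayed within 1 SD over lines, a spread that can exceed the median (Tgfb1 26.1 CPM, SD 34.1 CPM). Such tallies had little room to move and are no measure of stability. With the mouse as a block, chosen after seeing the data, edgeR called 0 genes and 0 members in both comparisons. The block left 2 residual degrees of freedom for uterus and 1 for tumor, and genes at an unadjusted p under 0.05 went from 2308 to 1501 and from 1636 to 2965. In the tumor comparison it turned Inhba to 2.29, Bmp2 to -2.01, and Acvr2b to -0.64, and it moved Grem1 to 10.04, Gdf6 to -2.73, and, for uterus, Ltbp2 to 5.44. Depth limits statements on Bmp2, Bmp5, Bmp7, Gdf6, Gdf10, and Nog, which fell under 3 counts in some lines, and groups of 2 lines limit every comparison.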
